A study of Mus musculus with 11 samples.

Results

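Cytochromes P450 are haem enzymes of the endoplasmic reticulum that oxidise drugs, steroids, fatty acids and environmental chemicals with electrons passed on by cytochrome P450 reductase. Families 1 to 3 hold most of the drug-metabolising enzymes of the liver, and family 4 holds mainly fatty acid hydroxylases. Their genes lie in clusters of close copies, many are expressed at high levels in hepatocytes, and several are switched by nuclear receptors or differ between male and female mice. The genes described here are those of P450 families 1 to 4 without the Cyp2c subfamily. They were chosen by gene symbol alone among probe sets that carry exactly 1 symbol, which gave 54 genes in 19 subfamilies out of 19938 genes with such a probe set. This choice of families was made with earlier results of these data known. Each of the 54 has 1 probe set, and they are the 2 Cyp1a genes, Cyp1b1, 2 Cyp2a, 5 Cyp2b, 9 Cyp2d and 6 Cyp2j genes, 1 gene each of Cyp2e, Cyp2f, Cyp2g, Cyp2r, Cyp2s, Cyp2t, Cyp2u and Cyp2w, 6 Cyp3a, 5 Cyp4a, 1 Cyp4b, 8 Cyp4f and 1 Cyp4x gene.

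Whole liver RNA of male C57/BL6 mice on a standard diet, between 8 and 9 weeks old, was measured on 11 Affymetrix arrays, 1 per sample. There were 3 wild-type samples (WT), 3 from mice with Nemo deleted in hepatocytes (NemoΔhepa), 2 from such mice that also lack TRAIL (NemoΔhepa/TRAIL-/-) and 3 from such mice that also lack TNFR1 (NemoΔhepa/TNFR1-/-). All groups except WT share the hepatocyte deletion of Nemo, made from a loxP-flanked allele (Cre driver not given in the sources used here), and the losses of TRAIL and TNFR1 are constitutive. Nemo, encoded by Ikbkg, is needed for NF-κB activation by IκB kinase, the Tnfsf10 product TRAIL triggers cell death, and TNFR1, from Tnfrsf1a, binds tumour necrosis factor.

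Values are RMA log2 values, so that a difference of 1 is a 2-fold change of signal. Differences were tested with limma over all 35556 probe sets, and a gene is said to have risen or fallen where its Benjamini-Hochberg adjusted p was below 0.05. Ikbkg itself measured 8.66 ± 0.07 in WT (SD, n = 3), 8.42 ± 0.12 in NemoΔhepa (n = 3), 8.25 ± 0.05 in NemoΔhepa/TRAIL-/- (n = 2) and 8.21 ± 0.10 in NemoΔhepa/TNFR1-/- (n = 3). Its fall passed in NemoΔhepa/TRAIL-/- (adjusted p = 0.0238) and NemoΔhepa/TNFR1-/- (0.00818) but not in NemoΔhepa (0.106), and where its probes lie relative to the deleted part is not known here. Tnfsf10 measured 6.23 and 6.11 in NemoΔhepa/TRAIL-/- against 6.51 at the least in WT (-0.65 ± 0.19, adjusted p = 0.0749). Tnfrsf1a lay between 9.95 and 10.19 in NemoΔhepa/TNFR1-/- and between 9.93 and 10.09 in WT, and its difference between NemoΔhepa/TNFR1-/- and NemoΔhepa was -0.27 ± 0.09 (adjusted p = 0.586). These levels are thus no check of the labels for TNFR1. The labelled tissue was checked by hepatocyte markers: the mean of the 15 measured lay between 12.94 and 13.09 on every array. Pancreatic acinar markers averaged 11.04 on the array of WT replicate 3 and between 5.33 and 5.68 on the others. Array numbers follow genotype (1 to 3, 4 to 6, 7 and 9, and 10 to 12), and a code within the names of the arrays is the same for WT and NemoΔhepa but another for each remaining group. Its meaning is not stated, so that array order, and for both double knockouts whatever the code stands for, cannot be told apart from genotype. The labels do not say whether each sample is a separate animal, and the spread that the p-values rest on may be technical.

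Sequences near the gene starts are shown for 5 members of the cluster on chromosome 7 that holds Cyp2a and Cyp2b, because Cyp2a22 and Cyp2b10 rose in every Nemo-deficient genotype and Cyp2b9 in NemoΔhepa/TNFR1-/-, while their close copies Cyp2a12 and Cyp2b13 passed in none. The probe set of Cyp2b13 gave a low signal, at percentile 17.51 of all probe sets, so that its lack of a call is a weak contrast. The sequences are from RefSeq (GRCm38.p6) and run from 250 bases before to 50 bases after the start in the gene's direction. Capitals mark TTGCNNAA, read on both strands, in the Cyp2b genes and TATAAA, read on both strands, in the Cyp2a genes. TTGCNNAA is the core of many C/EBP sites, and TATAAA is the TATA box.
Cyp2b10: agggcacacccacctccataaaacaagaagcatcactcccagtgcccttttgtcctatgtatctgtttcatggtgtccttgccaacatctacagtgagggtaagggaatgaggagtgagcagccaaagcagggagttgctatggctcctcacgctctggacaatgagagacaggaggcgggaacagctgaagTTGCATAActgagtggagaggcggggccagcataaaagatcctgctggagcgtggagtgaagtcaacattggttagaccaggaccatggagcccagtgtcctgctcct
Cyp2b9: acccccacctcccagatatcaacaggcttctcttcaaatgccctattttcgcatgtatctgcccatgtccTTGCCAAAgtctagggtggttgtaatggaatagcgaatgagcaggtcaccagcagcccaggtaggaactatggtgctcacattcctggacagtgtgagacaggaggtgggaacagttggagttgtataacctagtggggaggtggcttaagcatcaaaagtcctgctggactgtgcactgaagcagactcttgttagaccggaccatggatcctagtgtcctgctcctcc
Cyp2b13: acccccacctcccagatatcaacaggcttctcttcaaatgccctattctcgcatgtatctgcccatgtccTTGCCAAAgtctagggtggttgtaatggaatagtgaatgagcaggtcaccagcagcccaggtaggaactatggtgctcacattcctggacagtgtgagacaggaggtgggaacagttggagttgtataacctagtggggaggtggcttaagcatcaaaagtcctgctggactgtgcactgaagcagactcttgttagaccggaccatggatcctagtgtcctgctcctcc
Cyp2a22: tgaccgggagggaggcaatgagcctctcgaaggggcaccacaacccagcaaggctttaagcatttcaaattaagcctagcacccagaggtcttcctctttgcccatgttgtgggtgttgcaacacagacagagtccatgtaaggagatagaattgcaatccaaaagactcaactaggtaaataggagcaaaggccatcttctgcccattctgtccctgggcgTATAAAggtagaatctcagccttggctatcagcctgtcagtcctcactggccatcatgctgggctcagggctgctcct
Cyp2a12: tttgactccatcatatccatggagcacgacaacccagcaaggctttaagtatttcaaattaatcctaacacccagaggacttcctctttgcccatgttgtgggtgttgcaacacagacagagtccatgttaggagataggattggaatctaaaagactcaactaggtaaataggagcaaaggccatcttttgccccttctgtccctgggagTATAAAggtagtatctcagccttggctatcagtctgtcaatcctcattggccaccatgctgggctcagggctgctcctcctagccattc
The windows are chr7:25897408-25897707 (plus strand) for Cyp2b10, chr7:26173159-26173458 (plus strand) for Cyp2b9, chr7:26061245-26061544 (plus strand) for Cyp2b13, chr7:26939337-26939636 (minus strand) for Cyp2a22 and chr7:27028840-27029139 (plus strand) for Cyp2a12.

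Aligned end to end, the windows of Cyp2b9 and Cyp2b13 were identical at 298 of 300 positions (99.3%), and each matched that of Cyp2b10 at 230 of 314 aligned positions (73.3%). The windows of Cyp2a22 and Cyp2a12 were identical at 262 of 311 positions (84.2%). A TTGCNNAA match lay at position -180 in Cyp2b9 and Cyp2b13 and at -58 in Cyp2b10, counted from the gene's start as 0, and the windows of Cyp2b19 and Cyp2b23 hold a match too. Of all 32851 RefSeq windows of this length 10.8% hold TTGCNNAA, against 12 of the 48 windows that belong to the 42 members with an entry. AGGTCA, the core hexamer of nuclear receptor sites, was found on either strand in 13 of the 48 windows (27.1%, against 16.3% of all windows), including Cyp2b9 and Cyp2b13 and not Cyp2b10. TATAAA was found in 14 of the 48 (29.2%, against 13.6%). GCGTG, the core of the element bound by the AH receptor, was found in 12 of the 48 (against 32.4% of all windows), including Cyp1a1 and Cyp1b1. A match to these letters is a description of the sequence and not a mapped site.

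In the Nemo-deficient livers the P450 genes moved unevenly: Cyp2a22 and Cyp2b10 rose several-fold in all 3 genotypes and Cyp2b9 in NemoΔhepa/TNFR1-/-, a larger number of genes fell, most of them by less than 2-fold, and Cyp1a2, Cyp2e1 and Cyp3a11 passed in no comparison. In NemoΔhepa 5 of the 54 rose and 13 fell, which is 33.3% called, where 9.29% of all probe sets were called (6.08% higher and 3.21% lower). In NemoΔhepa/TRAIL-/- 4 rose and 10 fell (25.9%, against 7.55% of all probe sets, 4.91% higher and 2.64% lower). In NemoΔhepa/TNFR1-/- 5 rose and 10 fell (27.8%, against 9.18%, 5.83% higher and 3.35% lower). With only the 21789 single-symbol probe sets tested, 23, 17 and 20 of the 54 were called. Of all tested there, 3635, 2926 and 3371 were called, a higher background than over all 35556. Of the 54, 19 are in the top 5% of probe sets by signal. No share among probe sets matched to the members in signal was computed. The median of the 54 differences was -0.14 in NemoΔhepa, -0.16 in NemoΔhepa/TRAIL-/- and -0.15 in NemoΔhepa/TNFR1-/-, beside -0.05, -0.05 and -0.04 over all probe sets. At an unadjusted p below 0.05 there were 30, 28 and 29 members, beside 24.8%, 21.2% and 23.0% of all probe sets. Groups did not overlap for 7 higher and 24 lower members in the first comparison (12.8% and 17.4% of all probe sets), 5 and 22 in the second (14.7% and 21.1%), and 7 and 23 in the third (11.6% and 13.9%). These 3 comparisons share the WT arrays. Across them 3 genes rose in every Nemo-deficient genotype (Cyp2a22, Cyp2b10 and Cyp4f16), 6 fell in every such genotype (Cyp2d9, Cyp2j5, Cyp2j9, Cyp2u1, Cyp3a57 and Cyp4f13), and 32 of the 54 were called in none. The shares of all probe sets called in all 3 comparisons or in none were not computed. These joint counts therefore have no background beside them and only describe the genes.

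The counts depended on single arrays, and so did those over all probe sets. In NemoΔhepa against WT the 18 calls became 11 without WT replicate 1 or without NemoΔhepa replicate 2, and 10 without NemoΔhepa replicate 3. Over all probe sets the 3304 calls became 2517, 1979 and 1933 in these fits. The 14 calls in NemoΔhepa/TRAIL-/- became 9 without WT replicate 1, where 2126 of all probe sets were called. Without either NemoΔhepa/TRAIL-/- array the remaining sample is assumed to vary like the other groups. Counts of those fits are left out. The 14 calls became 3 when only the 5 arrays of WT and NemoΔhepa/TRAIL-/- were fitted. In that fit the calls over all probe sets went from 2684 to 1244. The 15 calls in NemoΔhepa/TNFR1-/- became 9 without NemoΔhepa/TNFR1-/- replicate 2 and 10 both without its replicate 3 and with only these groups in the fit. Over all probe sets the 3263 calls became 1970, 1926 and 1831 in the same order. Leaving out WT replicate 3, which carried the acinar transcripts, gave 12, 10 and 11, with 2869, 2404 and 2787 calls over all probe sets.

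**Figure D1:**
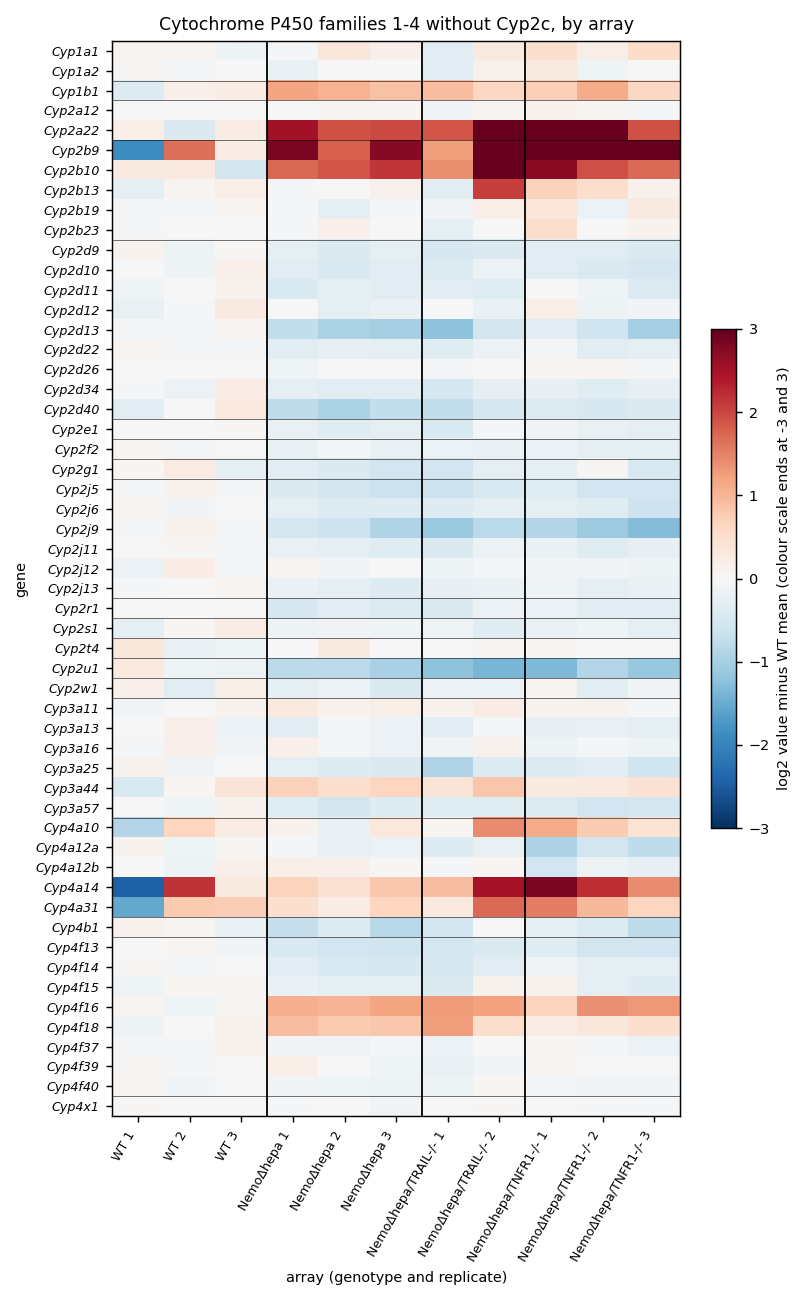
Deviation of each of the 54 P450 genes (rows, grouped by subfamily) from its WT mean on each of the 11 arrays (columns), in log2 units; red is higher and blue lower, and the colours end at -3 and 3. Cyp2a22, Cyp2b9, Cyp2b10 and Cyp4f16 are red in the Nemo-deficient arrays, Cyp2u1 and Cyp2j9 are blue there, and Cyp2b9, Cyp4a10, Cyp4a14 and Cyp4a31 already differ among the WT arrays.

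**Figure D2:**
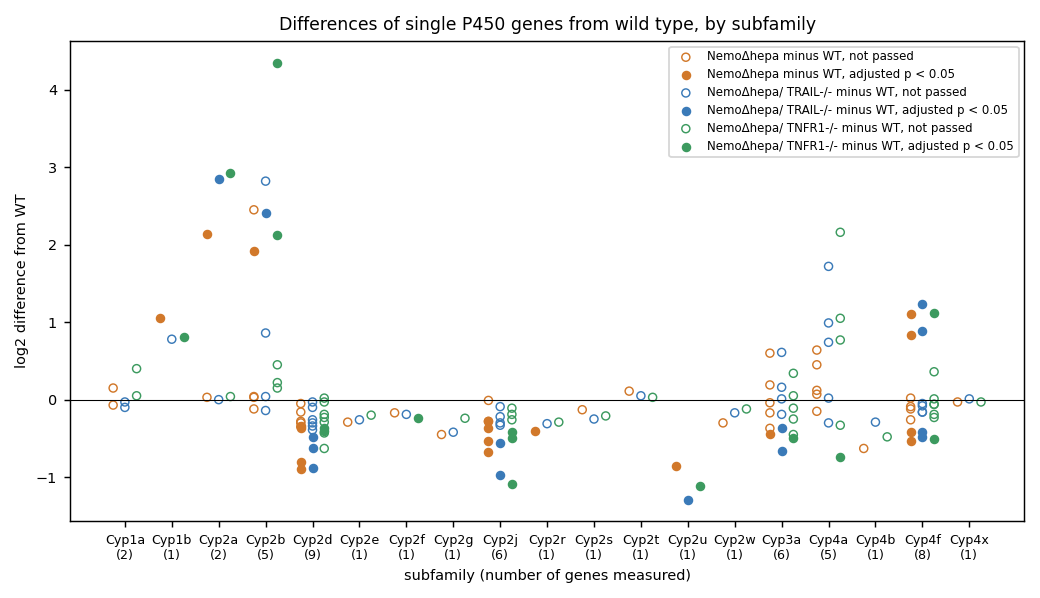
Log2 difference of each gene from WT (y axis) by subfamily (x axis, with the number of genes measured) in the 3 Nemo-deficient genotypes (colours); filled points passed at adjusted p below 0.05. The points of Cyp2d and Cyp2j lie at or below 0.02, and those of Cyp2a, Cyp2b and Cyp4a reach 2.92, 4.35 and 2.16.

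Cyp2b10 encodes an enzyme induced by phenobarbital through the nuclear receptor CAR. It measured 6.65, 6.67 and 5.83 in WT, 8.11, 8.27 and 8.52 in NemoΔhepa, 7.77 and 9.80 in NemoΔhepa/TRAIL-/-, and 9.09, 8.31 and 8.09 in NemoΔhepa/TNFR1-/-. Every Nemo-deficient array was above every WT array. It rose by 2.12 ± 0.47 in NemoΔhepa/TNFR1-/- (SE, adjusted p = 0.0226 by limma) and by 2.41 ± 0.53 in NemoΔhepa/TRAIL-/- (adjusted p = 0.0237), next to 1.92 in NemoΔhepa. The call in NemoΔhepa held in 4 of the 11 fits without 1 array, failing without any of the 3 WT or 3 NemoΔhepa arrays (adjusted p from 0.0621 to 0.11) and without NemoΔhepa/TNFR1-/- replicate 2 (0.0506). That in NemoΔhepa/TRAIL-/- failed without WT replicate 3 (0.0634) and without NemoΔhepa/TRAIL-/- replicate 2, when the difference was 1.39 (0.118). That in NemoΔhepa/TNFR1-/- failed without WT replicate 3 (0.0696), NemoΔhepa/TNFR1-/- replicate 1 (0.0648) or replicate 2 (0.0591).

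Cyp2b9, a P450 that is higher in livers of female than of male mice, spanned the widest range. Its WT arrays measured 5.18, 8.71 and 7.28, and its NemoΔhepa arrays 9.89, 8.84 and 9.78. The NemoΔhepa/TRAIL-/- arrays measured 8.32 and 11.44 and the NemoΔhepa/TNFR1-/- arrays 12.05, 10.99 and 11.19. All 3 NemoΔhepa/TNFR1-/- arrays were thus above those of WT and NemoΔhepa, whereas NemoΔhepa/TRAIL-/- overlapped with WT. It rose 20.4-fold in NemoΔhepa/TNFR1-/-, by 4.35 ± 0.94 (adjusted p = 0.0192). Its differences of 2.45 ± 0.94 in NemoΔhepa (adjusted p = 0.143) and 2.82 ± 1.05 in NemoΔhepa/TRAIL-/- (adjusted p = 0.153) did not pass. The former was 1.51 without WT replicate 1, and the latter 4.38 without NemoΔhepa/TRAIL-/- replicate 1 and 1.27 without its replicate 2. The rise in NemoΔhepa/TNFR1-/- missed the threshold without any of the 3 arrays of that group (adjusted p of 0.0547, 0.0503 and 0.0559).

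Cyp2b13 has a start window nearly identical to that of Cyp2b9, but its probe set gave a low signal. Its mean over all arrays was 4.22, at percentile 17.51 of the probe sets, while Cyp2b9 averaged 9.42, at percentile 88.02. The levels of Cyp2b13 are therefore a weak contrast to those of Cyp2b9. Whether Cyp2b13 is detected at this signal was not tested. It measured between 3.63 and 4.14 in WT, between 3.90 and 4.05 in NemoΔhepa, 3.59 and 6.0 in NemoΔhepa/TRAIL-/-, and between 4.05 and 4.63 in NemoΔhepa/TNFR1-/-. Only NemoΔhepa/TRAIL-/- replicate 2 stood apart, the array that was also higher of its pair in Cyp2b9, Cyp2b10 and Cyp2a22. The difference of Cyp2b13 in NemoΔhepa/TNFR1-/- was 0.45 with a 95% confidence interval from -0.63 to 1.52. Cyp2b19 and Cyp2b23 differed from WT by between -0.14 and 0.22 in the 3 genotypes and passed in none.

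Cyp2a22 measured 6.58, 5.94 and 6.59 in WT, 8.90, 8.27 and 8.35 in NemoΔhepa, 8.26 and 10.19 in NemoΔhepa/TRAIL-/-, and 9.82, 9.75 and 8.29 in NemoΔhepa/TNFR1-/-. The lowest Nemo-deficient array was above the highest WT array. It rose 4.39-fold in NemoΔhepa (2.14 ± 0.52, adjusted p = 0.0329), 7.22-fold in NemoΔhepa/TRAIL-/- (2.85 ± 0.58, adjusted p = 0.0173) and 7.55-fold in NemoΔhepa/TNFR1-/- (2.92 ± 0.52, adjusted p = 0.00788). The last of these held without any single array, while that in NemoΔhepa failed without any of the WT or NemoΔhepa arrays (adjusted p from 0.0619 to 0.1). In NemoΔhepa/TRAIL-/- it failed without WT replicate 2 (0.0559) and without NemoΔhepa/TRAIL-/- replicate 2 (1.89, adjusted p = 0.114). Its neighbour Cyp2a12 lay between 12.13 and 12.35 on all 11 arrays, and its difference in NemoΔhepa/TNFR1-/- was 0.04 (95% confidence interval -0.11 to 0.20). The probe set of Cyp2a4 and Cyp2a5, encoding close copies that oxidise testosterone and coumarin, carries both symbols and is no member. It lay between 11.19 and 12.35, with WT and Nemo-deficient arrays overlapping.

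**Figure D3:**
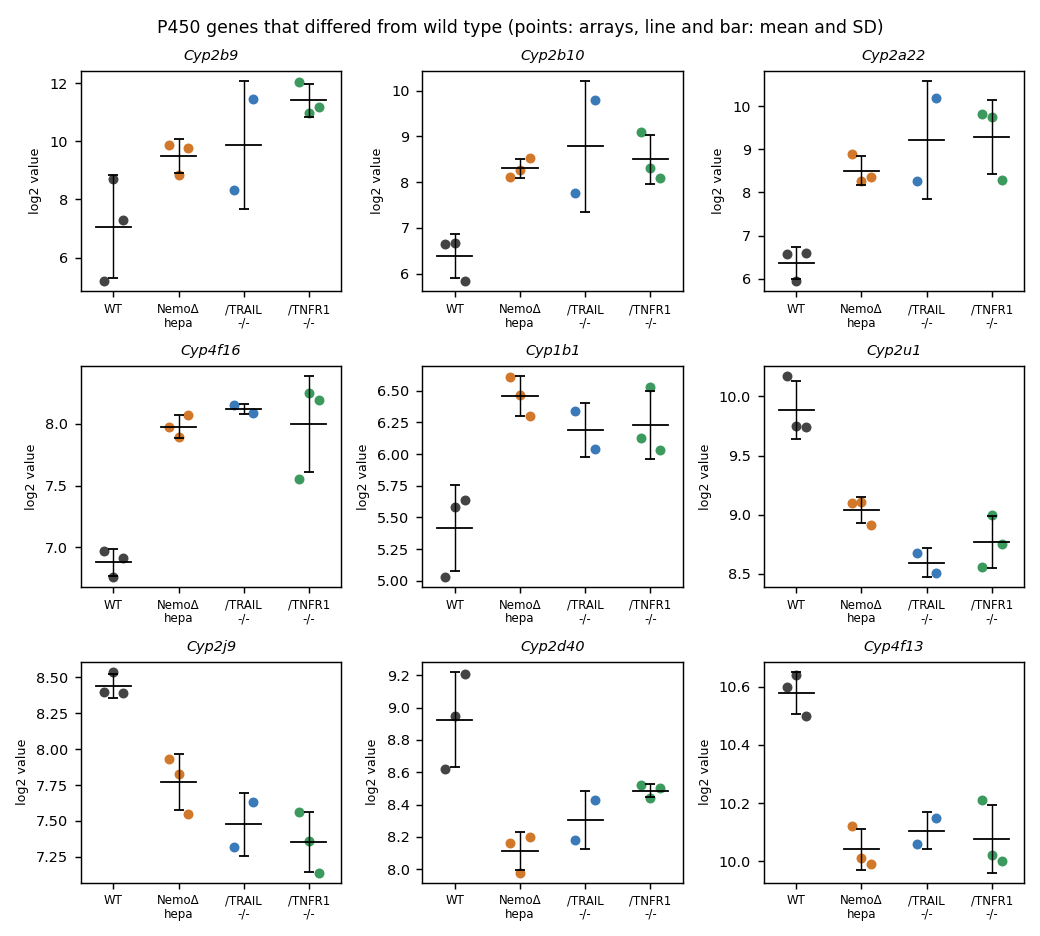
Log2 values of 9 P450 genes on the 11 arrays by genotype; points are arrays, the line and bar give the mean and SD, and /TRAIL-/- and /TNFR1-/- stand for these losses together with NemoΔhepa. Cyp2b9 in WT runs from 5.18 to 8.71 while Cyp2b10 and Cyp2a22 stay at or below 6.67 there, and the lower genes Cyp2u1, Cyp2j9 and Cyp4f13 show no overlap between WT and any Nemo-deficient genotype.

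Among the Cyp4f genes, which encode hydroxylases of fatty acids and leukotrienes, neighbours moved in opposite directions. Cyp4f16 measured 6.97, 6.76 and 6.91 in WT, 7.97, 7.89 and 8.07 in NemoΔhepa, 8.15 and 8.09 in NemoΔhepa/TRAIL-/-, and 7.55, 8.25 and 8.19 in NemoΔhepa/TNFR1-/-. It was higher on every Nemo-deficient array and rose by 1.10 ± 0.16 (adjusted p = 0.00332), 1.24 ± 0.18 (0.00423) and 1.12 ± 0.16 (0.0031), calls that held without any single array. Cyp4f13 fell by 0.54 ± 0.08 in NemoΔhepa (adjusted p = 0.00287), with arrays of 10.12, 10.01 and 9.99 against 10.60, 10.64 and 10.50 in WT. The other arrays measured 10.06 and 10.15 in NemoΔhepa/TRAIL-/- and at most 10.21 in NemoΔhepa/TNFR1-/-, all below WT. It also fell by 0.48 ± 0.09 in NemoΔhepa/TRAIL-/- (adjusted p = 0.0106, or 0.1 without its replicate 1) and by 0.51 ± 0.08 in NemoΔhepa/TNFR1-/- (0.00383). Cyp4f14, a leukotriene B hydroxylase, fell by 0.42 ± 0.08 in NemoΔhepa (adjusted p = 0.0109) and by 0.42 ± 0.09 in NemoΔhepa/TRAIL-/- (0.0214). Its arrays measured 11.79, 11.72 and 11.73 in WT, 11.42, 11.30 and 11.26 in NemoΔhepa, 11.23 and 11.43 in NemoΔhepa/TRAIL-/-, and 11.63, 11.46 and 11.46 in NemoΔhepa/TNFR1-/-. The call in NemoΔhepa/TRAIL-/- failed without WT replicate 1 (0.0598) or NemoΔhepa/TRAIL-/- replicate 1 (0.183), and the difference of -0.23 in NemoΔhepa/TNFR1-/- did not pass. Cyp4f15, Cyp4f37, Cyp4f39 and Cyp4f40 passed in none of the comparisons.

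Cyp4f18, which inactivates leukotriene B in myeloid cells, lies outside that cluster on chromosome 8. It measured 5.67, 5.83 and 5.96 in WT, 6.75, 6.60 and 6.63 in NemoΔhepa, 7.08 and 6.34 in NemoΔhepa/TRAIL-/-, and 6.04, 6.16 and 6.33 in NemoΔhepa/TNFR1-/-. Arrays of all 3 Nemo-deficient groups were above WT, and those of NemoΔhepa/TNFR1-/- were below those of NemoΔhepa. It rose by 0.84 ± 0.17 in NemoΔhepa (adjusted p = 0.014, or 0.0507 without WT replicate 1) and by 0.88 ± 0.19 in NemoΔhepa/TRAIL-/- (0.021). The call in NemoΔhepa/TRAIL-/- failed without WT replicate 1 (0.0628), WT replicate 2 (0.0551) or its own replicate 1, when the difference was 0.51 (0.118). In NemoΔhepa/TNFR1-/- the difference of 0.36 did not pass (adjusted p = 0.248).

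Cyp1b1 encodes an oestrogen-oxidising enzyme that is found mostly outside hepatocytes. It measured 5.03, 5.58 and 5.64 in WT, 6.61, 6.47 and 6.30 in NemoΔhepa, 6.34 and 6.04 in NemoΔhepa/TRAIL-/-, and 6.13, 6.53 and 6.03 in NemoΔhepa/TNFR1-/-, without overlap between WT and the rest. It rose by 1.05 ± 0.19 in NemoΔhepa (adjusted p = 0.0077, held without any single array). In NemoΔhepa/TNFR1-/- it rose by 0.81 ± 0.19 (adjusted p = 0.0246), a call that failed without WT replicate 1 (0.0576) or its own replicate 2 (0.0854). In NemoΔhepa/TRAIL-/- the difference of 0.78 ± 0.21 did not pass (adjusted p = 0.0533).

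Markers of other liver cells were looked at beside Cyp1b1 and Cyp4f18. All 10 macrophage markers rose in each Nemo-deficient genotype, their mean lying between 6.82 and 6.92 on WT arrays and between 8.28 and 8.78 on the others. In NemoΔhepa/TNFR1-/-, where Cyp4f18 lay below NemoΔhepa and did not pass, these means were 8.28, 8.68 and 8.78. They were 8.42, 8.62 and 8.63 in NemoΔhepa. Of 10 stellate cell markers 8 rose in NemoΔhepa, 7 in NemoΔhepa/TRAIL-/- and 8 in NemoΔhepa/TNFR1-/-, with means from 8.39 to 8.82 in WT and from 9.35 to 9.72 in the others. None of 9 neutrophil markers was called, and their means lay between 5.11 and 5.40 on all arrays. Kupffer cell markers went both ways: of 6, 3, 2 and 3 rose and 1, 2 and 0 fell in these genotypes. In the same order 1, 2 and 1 of 9 cholangiocyte and progenitor markers and 1, 1 and 4 of 10 T and NK cell markers rose. Of 8 sinusoidal endothelial markers 0, 2 and 1 rose and 0, 1 and 0 fell. Over all probe sets 6.08%, 4.91% and 5.83% were called higher and 3.21%, 2.64% and 3.35% lower. In whole liver a change in the number of cells of a type and a change of RNA per cell cannot be told apart, and the part of these cells in the 2 genes' differences was not tested. Of the 15 hepatocyte markers 2 fell in NemoΔhepa, 1 in NemoΔhepa/TRAIL-/- and 1 in NemoΔhepa/TNFR1-/-, with medians of -0.03, 0.00 and -0.07.

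Genes of the Cyp2d and Cyp2j subfamilies fell in every Nemo-deficient genotype. Cyp2d genes encode enzymes of drug and steroid oxidation and lie side by side on chromosome 15, and all 9 were below WT in NemoΔhepa and NemoΔhepa/TRAIL-/- and 8 of 9 in NemoΔhepa/TNFR1-/-. Of the 9, 4 fell in NemoΔhepa, 3 in NemoΔhepa/TRAIL-/- and 2 in NemoΔhepa/TNFR1-/-, where 3.21%, 2.64% and 3.35% of all probe sets were called lower, and none rose. The medians were -0.34, -0.34 and -0.29. Of the 6 Cyp2j genes, which encode epoxygenases of arachidonic acid and lie together on chromosome 4, 4, 2 and 3 fell in the same order of genotypes, with medians of -0.32, -0.32 and -0.34. Close copies can share probes, so that neighbours within these clusters are not fully separate measurements.

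Cyp2d9, a testosterone hydroxylase that is higher in males, measured 11.54, 11.28 and 11.45 in WT, at most 11.12 in NemoΔhepa, 10.91 and 10.98 in NemoΔhepa/TRAIL-/-, and at most 11.09 in NemoΔhepa/TNFR1-/-. No Nemo-deficient array reached the lowest WT array. It fell by 0.34 ± 0.08 (adjusted p = 0.0231), 0.48 ± 0.09 (0.0104) and 0.37 ± 0.08 (0.0179) in these groups, calls that held in 7, 10 and 8 of the 11 fits without 1 array (adjusted p at most 0.095). The arrays without which they failed were WT replicates 1 and 3 and NemoΔhepa replicates 2 and 3 in NemoΔhepa, replicate 1 of the pair in NemoΔhepa/TRAIL-/-, and WT replicate 1 and replicates 2 and 3 of the group in NemoΔhepa/TNFR1-/-.

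Cyp2d40 measured 8.62, 8.95 and 9.21 in WT and 8.16, 7.98 and 8.20 in NemoΔhepa. The NemoΔhepa/TRAIL-/- arrays measured 8.18 and 8.43 and the NemoΔhepa/TNFR1-/- arrays 8.52, 8.44 and 8.50, all below WT. It fell by 0.81 ± 0.14 in NemoΔhepa (adjusted p = 0.00648), which held without any single array. The fall of 0.62 ± 0.15 in NemoΔhepa/TRAIL-/- (adjusted p = 0.0407) held only when WT replicate 1 was the array left out, with adjusted p up to 0.266 in the other 10 fits. The difference of -0.43 in NemoΔhepa/TNFR1-/- did not pass. Cyp2d13, annotated by RefSeq as a transcribed pseudogene, measured 11.28, 11.30 and 11.41 in WT and 10.58, 10.37 and 10.34 in NemoΔhepa, a fall of 0.90 ± 0.20 (adjusted p = 0.0198) that failed without WT replicate 2 or 3 or NemoΔhepa replicate 2 or 3 (adjusted p up to 0.0737). It fell by 0.88 ± 0.22 in NemoΔhepa/TRAIL-/- (adjusted p = 0.0407), where the arrays measured 10.12 and 10.79 and the difference without replicate 1 was -0.54 (adjusted p = 0.292). That call held in 3 of the 11 fits, those without NemoΔhepa/TRAIL-/- replicate 2 or NemoΔhepa/TNFR1-/- replicate 1 or 3. Cyp2d10 fell by 0.36 ± 0.10 in NemoΔhepa (adjusted p = 0.0489) and by 0.41 ± 0.10 in NemoΔhepa/TNFR1-/- (0.0296). The call in NemoΔhepa held only in the fits without WT replicate 2 or either NemoΔhepa/TRAIL-/- array, and that in NemoΔhepa/TNFR1-/- failed without WT replicate 1 or 3 or replicate 2 or 3 of its group (adjusted p up to 0.106). Cyp2d26 lay between 13.06 and 13.25 on all arrays.

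Cyp2j5, the Cyp2j gene known for its high level in liver and kidney, measured 12.37, 12.50 and 12.34 in WT, 11.97, 11.85 and 11.77 in NemoΔhepa, 11.75 and 11.94 in NemoΔhepa/TRAIL-/-, and 12.04, 11.84 and 11.84 in NemoΔhepa/TNFR1-/-. All WT arrays were above all others. It fell by 0.54 ± 0.09 (adjusted p = 0.00563), 0.56 ± 0.10 (0.00979) and 0.49 ± 0.09 (0.00811), and of these only the call in NemoΔhepa/TRAIL-/- depended on an array, its replicate 1 (0.101 without it). Cyp2j9 showed the lowest p of all 54 genes in NemoΔhepa/TNFR1-/-, where it measured 7.56, 7.36 and 7.14 against 8.40, 8.54 and 8.39 in WT. It measured 7.93, 7.83 and 7.55 in NemoΔhepa and 7.32 and 7.63 in NemoΔhepa/TRAIL-/-. It fell by 1.09 ± 0.14 there (adjusted p = 0.0015), by 0.97 ± 0.15 in NemoΔhepa/TRAIL-/- (0.00545, or 0.0621 without its replicate 1) and by 0.67 ± 0.14 in NemoΔhepa (0.014). The last failed without WT replicate 2 (0.0517) or NemoΔhepa replicate 3 (0.053). Cyp2j6 fell by 0.36 ± 0.09 in NemoΔhepa (adjusted p = 0.0401) and by 0.42 ± 0.09 in NemoΔhepa/TNFR1-/- (0.0216, failing without WT replicate 1 or 3 or replicate 3 of the group, at up to 0.0677), and Cyp2j13 fell by 0.28 ± 0.07 in NemoΔhepa (0.0398). The NemoΔhepa calls of these 2 genes held only without NemoΔhepa/TNFR1-/- replicate 1 or 3, and only without NemoΔhepa replicate 1 or NemoΔhepa/TNFR1-/- replicate 1 or 2, with adjusted p up to 0.14 otherwise. Cyp2j11 and Cyp2j12 passed in no comparison.

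Cyp2u1 is the only gene of its subfamily and encodes a hydroxylase of long-chain fatty acids. It measured 10.17, 9.75 and 9.74 in WT, 9.10, 9.11 and 8.91 in NemoΔhepa, 8.68 and 8.51 in NemoΔhepa/TRAIL-/-, and 8.56, 9.00 and 8.75 in NemoΔhepa/TNFR1-/-. The groups did not overlap with WT, and both NemoΔhepa/TRAIL-/- arrays were below those of NemoΔhepa. It fell by 0.85 ± 0.14 in NemoΔhepa (adjusted p = 0.00608), by 1.29 ± 0.16 in NemoΔhepa/TRAIL-/- (0.002) and by 1.11 ± 0.14 in NemoΔhepa/TNFR1-/- (0.00174), and all 3 calls held without any single array. Cyp2r1, a vitamin D hydroxylase, measured 9.13, 9.12 and 9.10 in WT and 8.62, 8.80 and 8.70 in NemoΔhepa. It fell by 0.41 ± 0.08 there (adjusted p = 0.0132) and lay lower by similar amounts in both other genotypes (-0.31 and -0.29) without passing (adjusted p = 0.0785 and 0.0565).

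Cyp1a1, Cyp1a2 and Cyp2e1 passed in no comparison, and Cyp2f2 in 1. Cyp1a2, an AH receptor target that oxidises caffeine, lay between 12.26 and 12.86 on all arrays, and its 95% confidence interval in NemoΔhepa ran from -0.38 to 0.23. Cyp1a1 lay between 4.85 and 5.73 and passed in none, its difference in NemoΔhepa/TNFR1-/- being 0.40 (95% confidence interval 0.02 to 0.77, adjusted p = 0.192). Cyp2e1, the ethanol and paracetamol oxidase of pericentral hepatocytes, measured 13.53, 13.53 and 13.60 in WT and 13.34, 13.20 and 13.25 in NemoΔhepa. These groups did not overlap, but the difference of -0.29 did not pass (95% confidence interval -0.52 to -0.05, adjusted p = 0.124). Cyp2f2, a naphthalene oxidase, measured 13.50, 13.41 and 13.42 in WT and 13.27, 13.18 and 13.15 in NemoΔhepa/TNFR1-/-. It fell by 0.24 ± 0.07 there (adjusted p = 0.0495), a call that held in 1 of the 11 fits without 1 array, that without replicate 1 of the group (adjusted p up to 0.157 in the others).

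Of the 6 Cyp3a genes none rose and 1, 2 and 1 fell in NemoΔhepa, NemoΔhepa/TRAIL-/- and NemoΔhepa/TNFR1-/-. Of all probe sets 6.08%, 4.91% and 5.83% were called higher and 3.21%, 2.64% and 3.35% lower. Cyp3a11, the main target of the xenobiotic receptor PXR among them, lay between 12.67 and 13.07 on all arrays and differed from WT by 0.19 in NemoΔhepa (95% confidence interval 0.01 to 0.38, adjusted p = 0.189). Cyp3a25 fell by 0.66 ± 0.14 in NemoΔhepa/TRAIL-/- (adjusted p = 0.0239), where it measured 11.66 and 12.17 against 12.67, 12.46 and 12.59 in WT. That call failed without NemoΔhepa/TRAIL-/- replicate 1 (-0.40, adjusted p = 0.172), WT replicate 1 (0.0693) or WT replicate 3 (0.0565). Cyp3a57 fell by 0.44 ± 0.08, 0.37 ± 0.09 and 0.50 ± 0.08 (adjusted p = 0.0115, 0.0427 and 0.00578) at a low signal, between 3.61 and 3.85 in WT and between 3.15 and 3.36 elsewhere. It is 1 of the 7 members in the lowest 25% of probe sets by mean signal, and its call in NemoΔhepa/TRAIL-/- held in 2 of the 11 fits, those without WT replicate 2 or NemoΔhepa/TNFR1-/- replicate 1 (adjusted p up to 0.19). Cyp3a44, a P450 of female liver, measured 7.67, 8.19 and 8.52 in WT and 8.82, 8.61 and 8.76 in NemoΔhepa (difference 0.60, adjusted p = 0.0884). Cyp3a13 and Cyp3a16 passed in no comparison.

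The Cyp4a genes were split between those with a wide spread and those with a narrow one. Cyp4a10, Cyp4a14 and Cyp4a31 encode fatty acid hydroxylases that are classical targets of the receptor PPARα. Cyp4a14 measured 7.48, 12.11 and 10.21 in WT, 10.59, 10.37 and 10.75 in NemoΔhepa, 10.87 and 12.44 in NemoΔhepa/TRAIL-/-, and 12.78, 12.15 and 11.36 in NemoΔhepa/TNFR1-/-. The WT arrays alone spanned most of the range of this gene, replicate 1 being the lowest of the 11 arrays and replicate 2 above all NemoΔhepa arrays. Its difference of 2.16 ± 0.96 in NemoΔhepa/TNFR1-/- did not pass (adjusted p = 0.216), and was 0.94 without WT replicate 1 and 3.25 without WT replicate 2 (adjusted p = 0.0451). Cyp4a31 measured 8.61, 10.93 and 10.87 in WT and 11.68, 11.11 and 10.77 in NemoΔhepa/TNFR1-/-, and its difference of 1.05 there was 0.28 without WT replicate 1. Cyp4a10 measured 9.94, 11.47 and 11.05 in WT and between 11.23 and 11.94 in NemoΔhepa/TNFR1-/- (difference 0.77, 95% confidence interval -0.19 to 1.72). WT replicate 1 was the lowest array for all 3 genes and for Cyp2b9.

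Cyp4a12a, a male-predominant arachidonic acid hydroxylase in the same cluster, went the other way in 1 genotype. It measured 12.74, 12.52 and 12.67 in WT, 12.59, 12.42 and 12.47 in NemoΔhepa, 12.26 and 12.42 in NemoΔhepa/TRAIL-/-, and 11.71, 12.10 and 11.89 in NemoΔhepa/TNFR1-/-. The 3 NemoΔhepa/TNFR1-/- arrays were below all 8 others. It fell by 0.74 ± 0.11 against WT in that genotype (adjusted p = 0.00299), which held without any single array, while the differences of -0.15 in NemoΔhepa and -0.30 in NemoΔhepa/TRAIL-/- did not pass. Its close copy Cyp4a12b lay between 11.83 and 12.25 in NemoΔhepa/TNFR1-/- and between 12.25 and 12.58 in the other groups, with a difference from WT of -0.33 (adjusted p = 0.122).

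**Figure D4:**
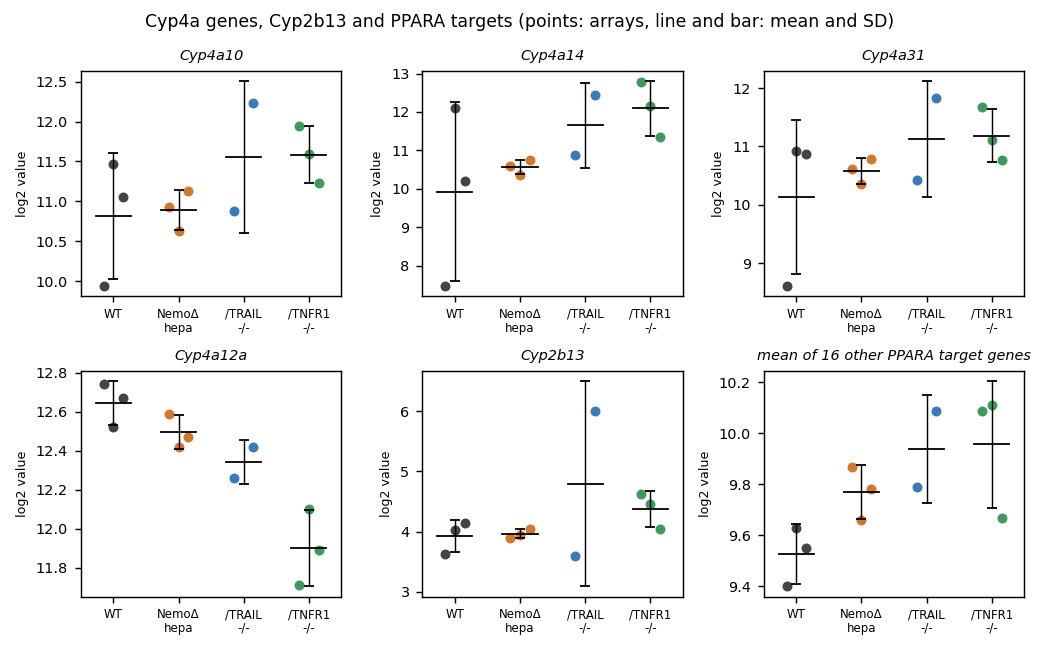
Log2 values of 4 Cyp4a genes and Cyp2b13, and the mean of 16 other PPARα target genes, on the 11 arrays by genotype; points are arrays, the line and bar give the mean and SD, and /TRAIL-/- and /TNFR1-/- stand for these losses together with NemoΔhepa. WT replicate 1 is lowest for Cyp4a10, Cyp4a14 and Cyp4a31 and for the mean of the targets (9.40), and Cyp4a12a is lowest in the 3 NemoΔhepa/TNFR1-/- arrays.

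Members known to differ between the sexes were set apart by a list. The male-predominant Cyp2d9, Cyp4a12a and Cyp4a12b had medians of -0.15, -0.30 and -0.37 in NemoΔhepa, NemoΔhepa/TRAIL-/- and NemoΔhepa/TNFR1-/-, with 1, 1 and 2 of the 3 called lower. The 7 measured female-predominant members (Cyp2b9, Cyp2b10, Cyp2b13, Cyp3a16, Cyp3a44, Cyp4a10 and Cyp4a14) had medians of 0.60, 0.86 and 0.77, with 1, 1 and 2 called higher and none lower. Those called were Cyp2b10 and, in NemoΔhepa/TNFR1-/-, Cyp2b9. Over all probe sets 6.08%, 4.91% and 5.83% were called higher and 3.21%, 2.64% and 3.35% lower. The mean of the 7 was 6.30, 7.85 and 7.22 in WT, from 7.74 to 8.06 in NemoΔhepa, 7.64 and 9.23 in NemoΔhepa/TRAIL-/-, and from 8.28 to 8.91 in NemoΔhepa/TNFR1-/-. Of that list 3 genes (Cyp2a4, Cyp3a41a and Cyp3a41b) have no probe set of their own. All samples are from males.

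The receptors that switch these genes were looked at next. Nr1i3, which encodes CAR, measured 10.66, 10.88 and 10.47 in WT, 10.06, 9.87 and 10.23 in NemoΔhepa, 9.60 and 10.66 in NemoΔhepa/TRAIL-/-, and 10.96, 10.63 and 10.04 in NemoΔhepa/TNFR1-/-, and passed in none. The PXR gene Nr1i2 lay between 9.60 and 10.08 on all arrays and passed in none. The PPARα gene Ppara passed in none and measured 10.31 and 10.95 in NemoΔhepa/TRAIL-/-. Ahr, the AH receptor gene, rose by 0.49 ± 0.13 in NemoΔhepa (adjusted p = 0.0422), 0.55 ± 0.14 in NemoΔhepa/TRAIL-/- (0.0468) and 0.60 ± 0.13 in NemoΔhepa/TNFR1-/- (0.0189). Of the 17 measured receptors and transcription factors 1, 1 and 1 rose and 3, 2 and 2 fell in these genotypes, with medians of -0.17, -0.13 and -0.06. Of all probe sets 6.08%, 4.91% and 5.83% were called higher and 3.21%, 2.64% and 3.35% lower, so that 1 riser of 17 is near the background. Those that fell in NemoΔhepa were Nr0b2, a repressor of bile acid synthesis (-1.12 ± 0.16, adjusted p = 0.00269), and the hepatocyte factors Cebpa (-0.67 ± 0.15, 0.0239) and Foxa2 (-0.61 ± 0.14, 0.0211).

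Other targets of the same receptors were counted from lists, to be read against 6.08%, 4.91% and 5.83% of all probe sets called higher and 3.21%, 2.64% and 3.35% called lower. Of 12 further CAR and PXR targets 2 rose and 1 fell in every Nemo-deficient genotype, with medians of 0.04, 0.02 and 0.11: the transferase Gstm3 (1.31 in NemoΔhepa) and the transporter Abcb1a (0.79) rose, and the carboxylesterase Ces2a fell (-1.25). Of 16 further PPARα targets 3, 3 and 4 rose and none fell, with medians of 0.08, 0.26 and 0.30. Pdk4, a kinase that restrains glucose oxidation, rose by 1.28, 0.92 and 1.60, and Acot2, an acyl-CoA thioesterase, by 0.88, 1.17 and 1.18. The mean of these 16 genes was 9.40, 9.63 and 9.55 on the WT arrays and 9.87, 9.66 and 9.78 on the NemoΔhepa arrays. It was 9.79 and 10.09 on the NemoΔhepa/TRAIL-/- arrays and 10.09, 10.11 and 9.67 on the NemoΔhepa/TNFR1-/- arrays. The lowest was the WT array lowest in Cyp4a14. All NemoΔhepa means were above WT, whereas Cyp4a14 in WT replicate 2 was above all NemoΔhepa arrays. A link between these targets and the Cyp4a genes was not tested. Of 5 further AH receptor targets 2, 1 and 2 rose, with medians of 0.49, 0.46 and 0.44, among them Ugdh, which supplies UDP-glucuronate (0.51, 0.50 and 0.58). Por, the reductase of these P450s, has no probe set with its symbol alone. Of 12 measured genes of electron supply, haem synthesis and haem breakdown 1, 1 and 2 rose and 0, 1 and 0 fell, with medians of -0.12, -0.07 and -0.08. The haem oxygenase Hmox1, the gene of haem breakdown, rose by 0.98, 1.16 and 1.19. It was the only riser of the list in NemoΔhepa and NemoΔhepa/TRAIL-/-.

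P450 genes outside the set are given for scale. The counts are to be read against 6.08%, 4.91% and 5.83% of all probe sets called higher. Called lower were 3.21%, 2.64% and 3.35%. Of 13 Cyp2c genes 1 rose and 3 fell in NemoΔhepa, 1 rose and 4 fell in NemoΔhepa/TRAIL-/-, and none rose and 6 fell in NemoΔhepa/TNFR1-/-, with medians of -0.35, -0.45 and -0.32. Of 17 measured genes of P450 families above 4, none rose and 2, 1 and 1 fell, with medians of -0.24, -0.18 and -0.04. Whether the shares of these groups differ from those of the 54 genes was not tested. Of 11 pericentral genes other than P450s 2, 2 and 3 rose and none fell, and of 9 periportal genes, 1, 1 and 2 rose and 2, 1 and 1 fell.

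The comparisons of the Nemo-deficient genotypes ask what the added loss of TRAIL or TNFR1 changes. None of the 54 genes passed by limma in NemoΔhepa/TRAIL-/- against NemoΔhepa (0.00562% of all probe sets called, 0.00281% higher and 0.00281% lower), in NemoΔhepa/TNFR1-/- against NemoΔhepa (0.0337%, 0.00281% higher and 0.0309% lower) or in NemoΔhepa/TNFR1-/- against NemoΔhepa/TRAIL-/- (0.0478%, 0.00562% higher and 0.0422% lower). At an unadjusted p below 0.05 there were 1, 6 and 5 genes, and 4.04%, 6.86% and 5.03% of all probe sets. Groups did not overlap for 3 higher and 2 lower genes in the first comparison, 6 higher and 5 lower in the second and 4 higher and 4 lower in the third. The shares of all probe sets were 8.97% and 9.62%, 6.6% and 5.84%, and 9.59% and 8.21%. No alternative fit gave a call among the 54 in these comparisons.

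Cyp4a12a came nearest to the threshold. It was lower in NemoΔhepa/TNFR1-/- than in NemoΔhepa by 0.59 ± 0.11 (difference -0.59, 95% confidence interval -0.83 to -0.35, unadjusted p = 0.000303, adjusted p = 0.276) and lower than in NemoΔhepa/TRAIL-/- (-0.44 ± 0.12, adjusted p = 0.76). Cyp4a12b differed by -0.45 (adjusted p = 0.496) and Cyp4f18 by -0.48 (adjusted p = 0.646) from NemoΔhepa, both without overlap. Cyp2b9 stood 1.91 ± 0.94 higher in NemoΔhepa/TNFR1-/- than in NemoΔhepa (95% confidence interval -0.19 to 4.01, adjusted p = 0.742), again without overlap. Against NemoΔhepa/TRAIL-/- its difference was 1.53, and without NemoΔhepa/TRAIL-/- replicate 1 it was -0.03. Cyp4a14 differed from NemoΔhepa by 1.53 in NemoΔhepa/TNFR1-/- (95% confidence interval -0.63 to 3.68) and by 1.08 in NemoΔhepa/TRAIL-/- (-1.33 to 3.49), both without overlap. The latter was 1.87 without NemoΔhepa/TRAIL-/- replicate 1 and 0.30 without its replicate 2. In NemoΔhepa/TRAIL-/- the lowest unadjusted p was that of Cyp2u1, which differed by -0.44 (95% confidence interval -0.80 to -0.09, adjusted p = 1). Intervals of this width leave differences of several-fold in Cyp2b9 and Cyp4a14 undetectable with these numbers of arrays.

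**Figure D5:**
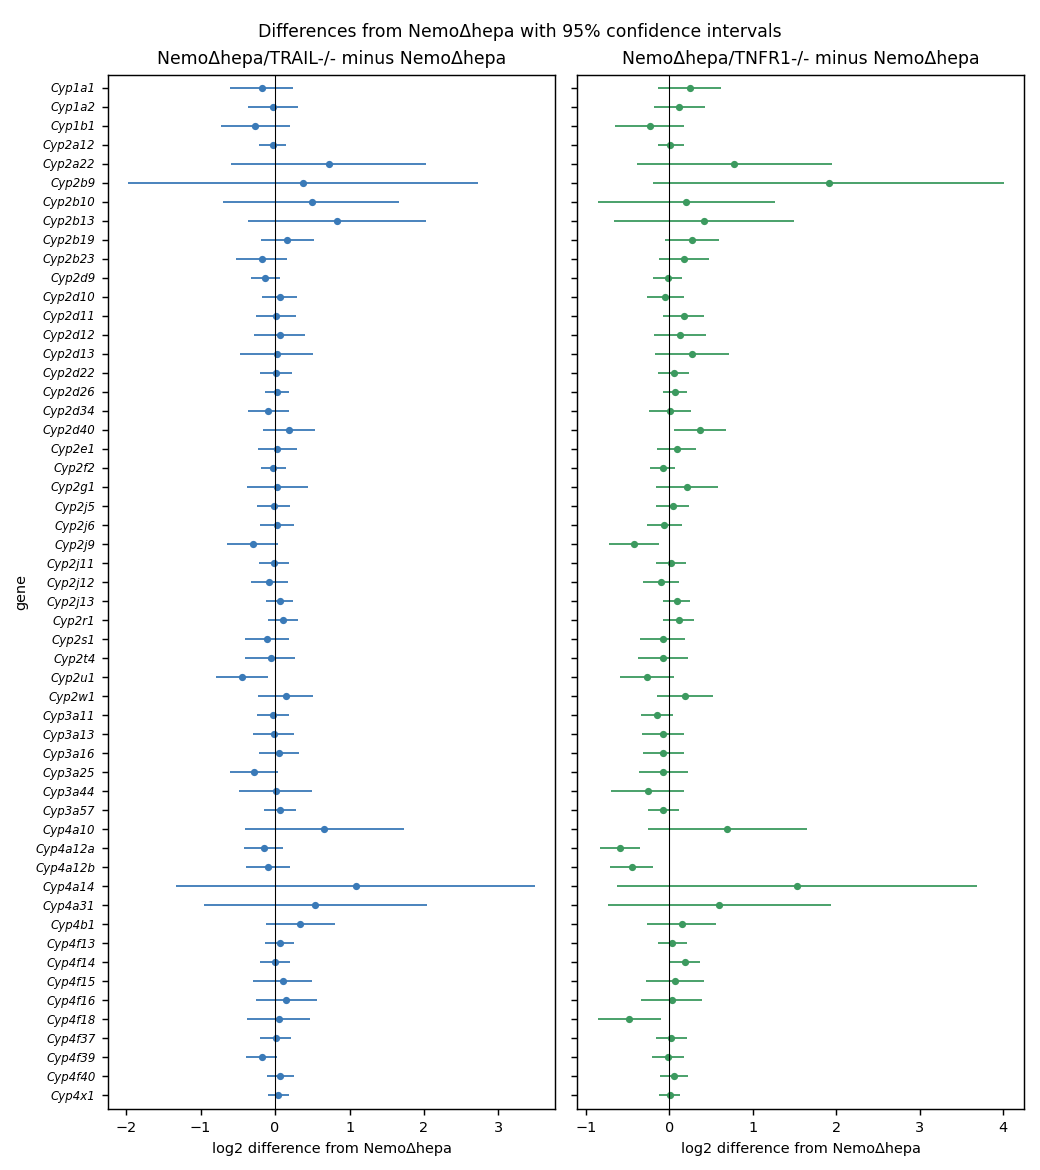
Log2 difference of each of the 54 genes (rows) from NemoΔhepa in NemoΔhepa/TRAIL-/- (left) and NemoΔhepa/TNFR1-/- (right), with 95% confidence intervals from the moderated fit. Intervals are widest for Cyp2b9 and Cyp4a14, and that of Cyp4a12a in NemoΔhepa/TNFR1-/- (-0.83 to -0.35) lies below 0 although its adjusted p was 0.276.

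The remaining members passed in no comparison. Over all 11 arrays Cyp2g1 lay between 5.11 and 5.92, Cyp2s1 between 6.14 and 6.73, Cyp2t4 between 4.75 and 5.30, Cyp2w1 between 5.91 and 6.53, and Cyp4x1 between 4.94 and 5.06. Cyp4b1 measured 8.65, 8.61 and 8.33 in WT and 7.85, 8.15 and 7.70 in NemoΔhepa. Cyp2g1, Cyp2s1, Cyp2t4, Cyp2w1, Cyp4b1 and Cyp4x1, each the sole gene of its subfamily here, differed from WT by between -0.63 and 0.11, the lowest value being that of Cyp4b1 in NemoΔhepa (adjusted p = 0.0664). Cyp2d11, Cyp2d12, Cyp2d22 and Cyp2d34 lay below WT in each Nemo-deficient genotype without passing, by between -0.39 and -0.03.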

How the data were processed

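Per the submitters' processing notes, the authors made the deposited log2 values with RMA, a method that brings all arrays to 1 distribution, so that a shift common to all genes would be lost. The genome build and probe positions behind the probe sets are not given in the sources used here. Of 35556 probe sets 21789 carry 1 gene symbol, 1621 several and 12146 none. Groups come from the labels. Limma 3.58.1 in R 4.3.3 fitted 1 mean per genotype over all 11 arrays, with moderated variances (9.51 degrees of freedom in total), and gave 6 comparisons, each adjusted over all probe sets by Benjamini-Hochberg. The script was tested on simulated data. The number of arrays limits the precision. Full values were set for the 8 called members with the largest rise and the 8 with the largest fall in each comparison with WT, the member of highest mean in each subfamily, 10 receptor targets, the 3 targeted genes, and of each other list up to 3 called genes and the main receptors; some are given as ranges. The members and gene lists were chosen with earlier results of these data known. Alternatives were other moderation, normalisation, centring, filters and array weights, a replicate block, only the groups compared, and leaving out each array.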

Additional observations from a re-analysis of the deposited data

Results flagged for a closer look

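Probe sets with several P450 symbols were not among the 54 genes, and 2 of them rose above the WT level in NemoΔhepa/TRAIL-/-. The probe set shared by Cyp3a41a, Cyp3a41b and Cyp3a44, copies that are higher in female liver, differed by 1.08 ± 0.24 (SE, adjusted p = 0.026 by limma), with arrays of 10.37 and 11.13 against 9.43, 9.57 and 10.02 in WT. The probe set that adds Cyp3a11 to these 3 symbols differed by 1.04 ± 0.24 (adjusted p = 0.0315), with arrays of 10.24 and 10.99 against 9.33, 9.47 and 9.92. Neither can be assigned to a single gene, and the probe sets may share probes.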

How the results depend on the processing

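Against WT 18, 14 and 15 of the 54 genes passed in NemoΔhepa, NemoΔhepa/TRAIL-/- and NemoΔhepa/TNFR1-/-. Leaving out 1 array at a time gave 10 to 20, 5 to 13 and 9 to 17, and 0 in the comparisons among Nemo-deficient genotypes. Fitting only the groups compared gave 3 in NemoΔhepa/TRAIL-/-, with 1244 calls over all probe sets where the main fit gave 2684. The difference of Cyp2b9 between NemoΔhepa/TNFR1-/- and NemoΔhepa/TRAIL-/- ran from -0.03 to 3.09 when 1 array was left out, and -0.03 is the value without NemoΔhepa/TRAIL-/- replicate 1. The labels do not say whether replicate numbers pair the samples. Same-numbered samples of different groups had correlations of their deviations from -0.117 to 0.0435, against -0.164 to 0.164 for different numbers. With groups of 2 or 3 such values cannot decide whether the numbers mark a shared litter or batch. With the replicate number as a block 15, 10 and 12 genes passed, and 2781, 2261 and 2771 of all probe sets. Restricting the test to single-symbol probe sets gave 23, 17 and 20. In these fits 3635, 2926 and 3371 of the 21789 such probe sets were called. The main fit called 3304, 2684 and 3263 of all 35556, so the background share of single-symbol probe sets is higher. The cause of the differences between settings was not tested. Of the 47 called differences 19 passed in every fit without 1 array and in every alternative that tested them, and 28 failed in at least 1. Of the 19, the filters on low signal left 3 untested: Cyp3a57 in NemoΔhepa and NemoΔhepa/TNFR1-/- under both filters, and Cyp1b1 in NemoΔhepa under the filter at the median. With 2 or 3 arrays a group, intervals are wide where WT arrays differ, as in Cyp2b9 and Cyp4a14.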
